A study of Drosophila melanogaster with 4 samples.

Results

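Chromosome 4 of *Drosophila melanogaster* was examined region by region for enrichment of Su(var)3-7, a zinc-finger protein whose gene is named because mutations in it suppress position-effect variegation. The members are all regions that the deposited lists mark as enriched on chromosome 4, chosen by chromosome name alone. They number 119 of 6098 regions in ChIP replicate 1, 112 of 6295 in ChIP replicate 2 and 155 of 10603 in a combined list that the authors made from the replicate set. Chromosome 4 measures 1351857 bp in FlyBase release 5, the build of the files.

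Chromatin immunoprecipitation followed by sequencing (ChIP-seq) was done with the antibody Su(var)3-7-Q3448 on whole embryos of wild-type Oregon-R flies. The stage is labelled 14 to 16 h, and the protocol collects embryos of up to 16 h and fixes them in 1.8% formaldehyde. There are 2 ChIP libraries and 2 input libraries, the inputs being genomic DNA of the same strain and stage. Per the labels each input belongs to the ChIP list with the same replicate number, and no values of the inputs are used here. Separate embryo collections are not mentioned for the replicates, so the spread between them may be technical. Whole embryos mix many cell types, so a region bound in few cells and a region bound weakly in many cannot be told apart.

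Chromosome 4 is the small autosome of the fly. Its assembled sequence is the right arm, whose low-coordinate end lies toward the centromere. The arm carries active genes, among them *ey*, *ci* and *pan*, inside chromatin that stains and behaves as heterochromatin, and it is known for heterochromatin protein 1a (HP1a) and the chromosome-specific protein POF along its length. Su(var)3-7 is known to bind HP1a and to be found at pericentric heterochromatin, and position-effect variegation is the patchy silencing of a gene placed in or near such chromatin. Positions of genes in release 5 were not used here, so regions are given by coordinates only, and no sequence of that build was at hand to print.

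Su(var)3-7 occupied chromosome 4 as many regions, most of them narrow, with a few wide ones that held a large part of the enriched bases. Coverage had 1 sparse stretch near the centromere-proximal end and was highest in the last sequence at the telomere-proximal end. Enriched regions covered 417.1 kb of the chromosome in replicate 1 and 362.8 kb in replicate 2. As a percent of its length this was 30.9% in replicate 1 and 26.8% in replicate 2, a mean of 28.8% ± 2.84 (SD, n = 2). The combined list covered 523.7 kb, or 38.7%. Bases listed as enriched in both replicates came to 336.2 kb, or 24.9% of the chromosome, and 908.2 kb, or 67.2%, were enriched in neither replicate list.

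**Figure D1:**
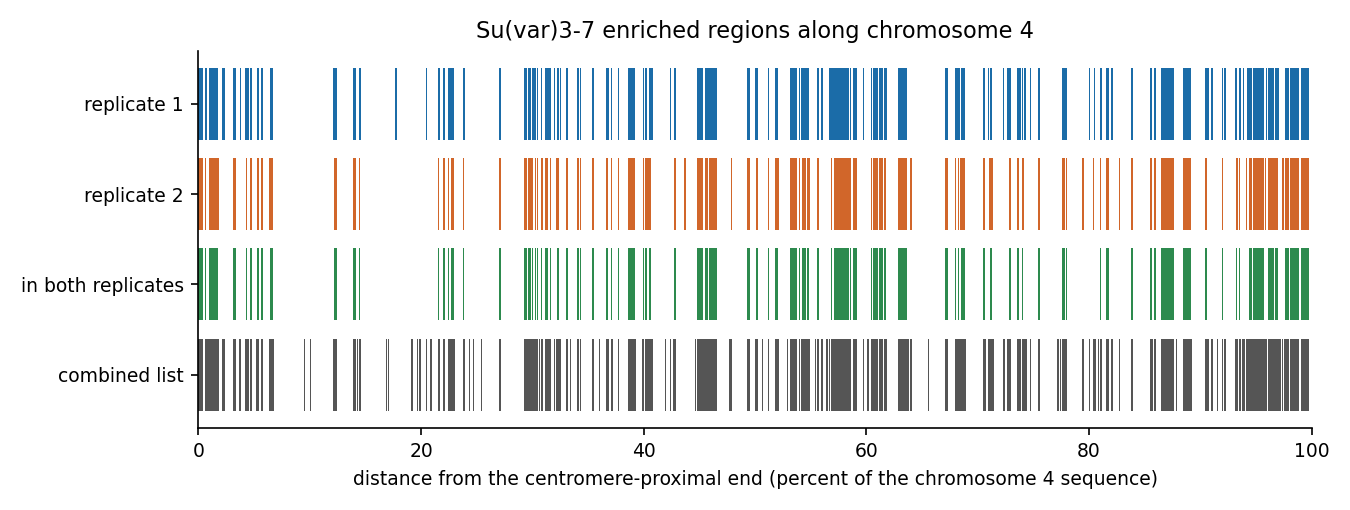
Enriched regions of replicate 1, replicate 2 and the combined list along chromosome 4, with the bases enriched in both replicates on a track of their own; the horizontal axis is the distance from the centromere-proximal end as a percent of the sequence. Each bar is 1 region drawn to scale (119, 112 and 155 regions). The stretch of the replicate 1 track that is blank from 6.69% to 12.1% of the length is its longest gap. The combined track has bars inside this stretch.

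The regions of chromosome 4 were about 2 kb wide at the median, with a tail of wide ones. The median width was 2310 bp in replicate 1 and 2186 bp in replicate 2, with quartiles of 1786 and 4016.5 bp in replicate 1 and of 1847 and 3554 bp in replicate 2. The narrowest regions were 1311 and 1305 bp and the widest 19613 and 17687 bp. The narrowest region on any sequence was 1301 bp in each replicate list, so the lower end of the widths sits close to the narrowest width present in the lists. Regions of at least 5 kb were few, 21 in replicate 1 and 16 in replicate 2, and they held 43.9% and 37.3% of the enriched bases. In the combined list 25 of 155 regions were this wide and held 44.3% of the bases.

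Coverage differed strongly along the chromosome, and the 2 replicates ranked the windows in nearly the same order. The chromosome was divided into 14 consecutive windows of 100 kb, the last of them 51.9 kb long. The first window, at the centromere-proximal end, was covered over 46.9% in replicate 1 and 33.1% in replicate 2. The next 3 windows were sparse, with 9.79%, 6.69% and 15.2% in replicate 1 and 9.15%, 2.73% and 12.9% in replicate 2. Both replicates thus had their lowest window from 200 to 300 kb.

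From 400 kb onward no full window fell to those levels. The lowest there was the window from 1000 to 1100 kb, at 20.1% in replicate 1 and 15.8% in replicate 2. The window from 700 to 800 kb was the highest of the full windows, at 59.6% in replicate 1 and 50.6% in replicate 2. The last 51.9 kb, at the telomere-proximal end, was higher still, with 70.6% in replicate 1 and 71.6% in replicate 2. Replicate 1 was higher in 11 of the 14 windows and replicate 2 in 3. Spearman's rho of coverage between the replicates was 0.952 over the 14 windows, given as a description because neighbouring windows share regions and the libraries share a chromosome.

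**Figure D2:**
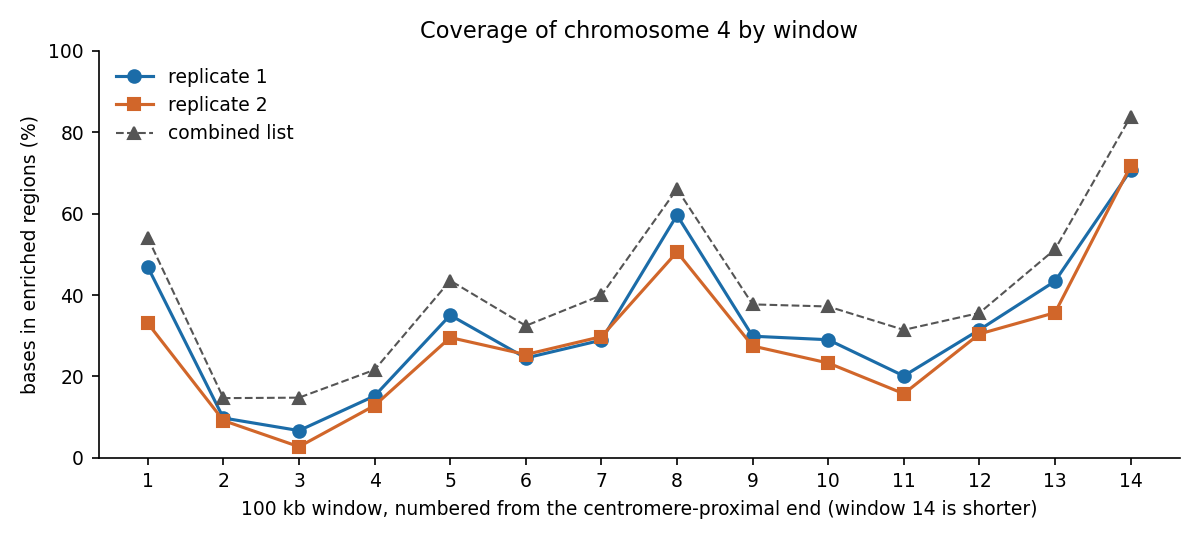
Percent of bases in enriched regions in each of the 14 windows, numbered from the centromere-proximal end; points are single lists (replicate 1, replicate 2 and the combined list). Coverage is lowest in window 3 (6.69% and 2.73% in the replicates) and highest in window 14 (70.6% and 71.6%), and window 8 stands out in the middle (59.6% and 50.6%).

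The windows were grouped into 4 stretches, whose borders were chosen after these values were seen. The stretch from 100 to 400 kb (here the sparse stretch) was covered over 9.40% ± 1.64, the first 100 kb over 40.0% ± 9.77, the stretch from 400 to 1200 kb over 30.7% ± 2.33 and the sequence beyond 1200 kb over 50.3% ± 3.36 (SD, n = 2). In replicate 2 the first 100 kb stood little above the middle stretch, at 33.1% against 29.0%. The 2 regions of at least 5 kb in the first 100 kb ended by 24391 in replicate 1 and by 24538 in replicate 2. After 24538 replicate 2 listed no region before 42055. The sequence beyond 1200 kb was uneven, with gaps of up to 16996 bp in replicate 1 and 18244 bp in replicate 2. Between 1205532 and 1259280 replicate 2 listed only 1222514 to 1224534 and 1242779 to 1244295. The sparse stretch had fewer regions, 11 in replicate 1 and 10 in replicate 2 over its 300 kb, which is 35.0 ± 2.36 regions per Mb against 97.5 ± 3.54 from 400 to 1200 kb. Its regions were about as wide as those of the middle stretch, with medians of 2239 and 2252.5 bp against 2212.5 and 2140 bp. Regions of at least 5 kb numbered 1 of 11 and 0 of 10 in the sparse stretch, against 11 of 80 and 9 of 76 from 400 to 1200 kb. In the combined list the sparse stretch had 76.7 regions per Mb with a median width of 1676 bp, against 121.25 per Mb and 2131 bp from 400 to 1200 kb.

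Median scores were highest at the telomere-proximal end of the chromosome. The stretches were bordered with coverage in view, and score goes with width, so scores by stretch are not independent of coverage. The score is 1 number per region from the authors, on a scale that is not given in the sources used here, and it is used for ranks and descriptions inside 1 list at a time. Over chromosome 4 the median score was 0.628 in replicate 1 and 0.698 in replicate 2, and the combined list had 0.458, with ranges of 0.158 to 2.64, 0.301 to 2.51 and 0.0447 to 2.54. Beyond 1200 kb the median was 0.979 in replicate 1 and 1.18 in replicate 2, whereas from 400 to 1200 kb it was 0.578 and 0.672. In the sparse stretch it was 0.593 and 0.611. The first 100 kb had medians of 0.753 and 0.646 over only 11 and 9 regions, above the middle stretch in replicate 1 and below it in replicate 2.

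Ranked against the whole list, chromosome 4 regions had a middling median and many members among the lowest scores. The median chromosome 4 region stood at percentile 50.0 of all scores in replicate 1 and at percentile 46.4 in replicate 2, and at percentile 55.6 of the combined scores. In replicate 1, 22 of its 119 regions (18.5%) fell in the lowest 10% of that list, in replicate 2 it was 20 of 112 (17.9%) and in the combined list 32 of 155 (20.6%). The highest 10% held 11 (9.24%), 15 (13.4%) and 19 (12.3%) of them. Of the regions in the highest 10%, 8 of 11 in replicate 1, 10 of 15 in replicate 2 and 11 of 19 in the combined list lay in the first 100 kb or beyond 1200 kb. These ends held 23.5%, 23.2% and 22.6% of all chromosome 4 regions of the same lists. The sparse stretch held 0 of the highest 10% in each list, but only 11, 10 and 23 regions in all, so the 0 says little. The best-ranked region of chromosome 4 was 33rd of 6098 in replicate 1 and 38th of 6295 in replicate 2.

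The 10 highest-scoring combined regions that overlap both replicates included 6 at the chromosome ends. Of these, 3 lay in the first 25 kb. The region from 6 to 5330 (5325 bp) had a score of 2.00 in the combined list, and its counterparts, from 24 to 5286 in replicate 1 and from 1 to 5262 in replicate 2, scored 2.01 and 1.99. Enrichment thus started at the first bases of the assembled sequence in the 3 lists. The region from 7573 to 11454 had a combined score of 1.88, with a single 2302 bp region in replicate 1 (score 2.64, its highest on the chromosome) and a single 1365 bp region in replicate 2 (score 1.86). Replicate 1 covered 59.3% of this combined region and replicate 2 covered 35.2%, so the combined region reached well past both. The region from 12297 to 24546 (12250 bp, combined score 1.69) was covered over 98.3% by replicate 1 and 94.6% by replicate 2.

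At the telomere-proximal end the regions from 1338475 to 1349035 (10561 bp) and from 1325509 to 1336056 (10548 bp) had combined scores of 1.68 and 1.67. In the replicates their scores were 1.71 and 1.68 for the outer region and 1.63 and 1.76 for the inner one. The last 2822 bp of the sequence in replicate 1 and 3366 bp in replicate 2 were not enriched. A further region of this end, from 1319011 to 1323881, had a combined score of 1.29. The highest-scoring region of replicate 2 also lay near this end, from 1295269 to 1296654 (1386 bp, score 2.51). It overlapped a region of replicate 1 from 1295787 to 1297309 (1523 bp, score 1.56), and it is named here after its values were seen.

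The other 4 of the 10 lay in the interior. The region from 826173 to 831878 (5706 bp) had a combined score of 1.57, with 1.64 in replicate 1 and 1.63 in replicate 2. The region from 521383 to 531181 (9799 bp, score 1.33) was split at the same place in both replicates. Replicate 1 listed 521443 to 524654 and 524690 to 529972, and replicate 2 listed 521450 to 524673 and 524698 to 529948. The second piece scored higher than the first in both, at 1.57 against 1.11 in replicate 1 and 1.58 against 1.24 in replicate 2. The regions from 1169001 to 1185200 (16200 bp) and from 851927 to 861240 (9314 bp) had combined scores of 1.30 and 1.29.

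Of the 10 widest combined regions in both replicates, 1 lay in the first 25 kb and 9 lay beyond 521383. The widest in the combined list ran from 770797 to 790468 (19672 bp, score 1.23), in the window with the highest coverage among the full ones. It was a single region in each replicate, 19613 bp in replicate 1 and 17687 bp in replicate 2. The next was the region from 1169001 to 1185200, a single region of 15853 bp in replicate 1. In replicate 2 this stretch was divided in 2, from 1168993 to 1173225 (score 1.56) and from 1173236 to 1184690 (score 1.16), with 10 bp between them.

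Next in width, the region from 605056 to 619461 (14406 bp, score 0.859) was made of 2 regions in replicate 1 and 4 in replicate 2. The highest piece scored 0.986 in replicate 1 and 1.13 in replicate 2, and the lowest 0.518 and 0.342. The region from 1279819 to 1293790 (13972 bp, score 1.08) was undivided in replicate 1 and in 2 pieces in replicate 2. Of the remaining wide regions, those from 1195839 to 1206455 (10617 bp, score 1.03) and from 731557 to 742085 (10529 bp, score 0.904) were outside the 10 highest by score. A width counted from one list can therefore be a sum of narrower regions in another.

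Width and score went together across the regions of chromosome 4. Spearman's rho was 0.816 over 119 regions in replicate 1, 0.755 over 112 in replicate 2 and 0.730 over 155 in the combined list. On the 5 euchromatic arms (X, 2L, 3L, 2R and 3R) it was 0.733 over 4470 regions and 0.690 over 4808 in the replicates. On the 6 sequences assembled from pericentric heterochromatin (XHet, YHet and the left and right Het sequences of chromosomes 2 and 3, here the Het sequences) it was 0.506 over 918 and 0.513 over 923. These values describe regions of 1 library each, which are not independent replicates, and the difference between sequences was not tested. The 5 lowest-scoring combined regions that overlap both replicates were 297339 to 299245 (1907 bp, score 0.291), 76045 to 78016 (1972 bp, 0.314), 291114 to 292997 (1884 bp, 0.317), 1160228 to 1162554 (2327 bp, 0.322) and 665910 to 669340 (3431 bp, 0.327). All but the last were narrower than the median of 3425 bp for combined regions that overlap both replicates, and the last lay close to it.

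**Figure D3:**
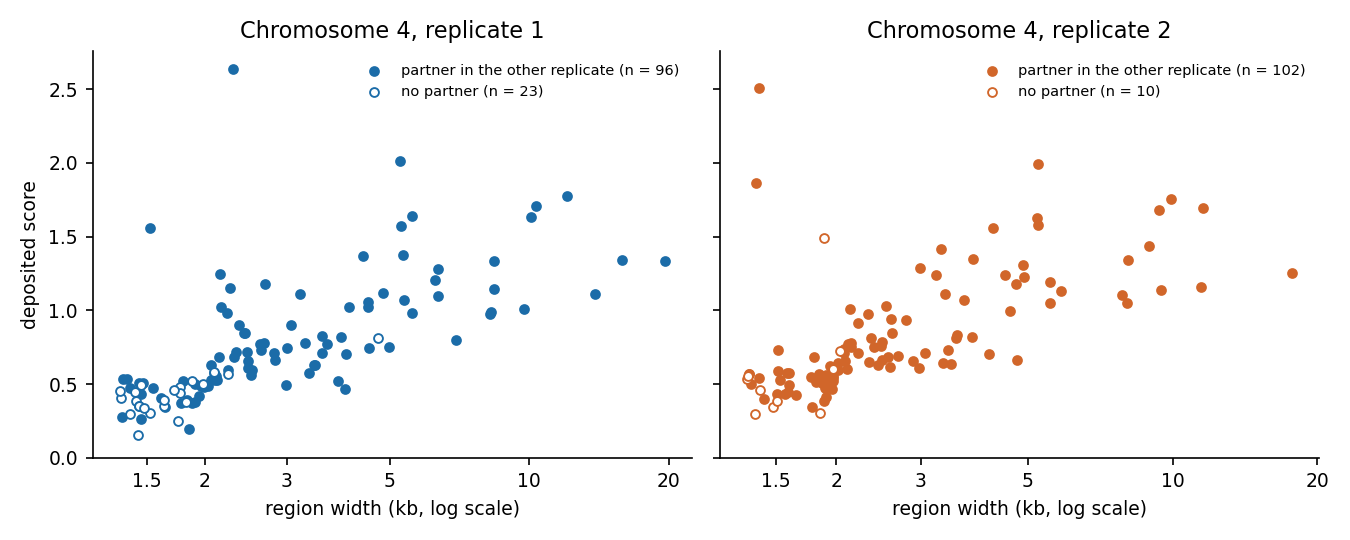
Deposited score against width (kb, log scale) for the regions of chromosome 4 in replicate 1 (left) and replicate 2 (right); filled points have a partner in the other replicate (96 and 102) and open points have none (23 and 10). Open points lie mostly among the narrow, low-scoring regions; the exceptions are 1 region of 4724 bp in replicate 1 and, in replicate 2, 2 regions above the median score of 0.698, with scores of 1.49 and 0.723.

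Neighbouring regions were separated by gaps of very unequal length. The median gap between neighbours was 3631 bp in replicate 1 and 4010 bp in replicate 2, and the shortest were 12 and 10 bp. Gaps under 500 bp numbered 11 of 118 in replicate 1 and 14 of 111 in replicate 2, and those over 20 kb numbered 14 and 9. The long gaps together held 34.6% of the chromosome in replicate 1 and 27.9% in replicate 2.

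The longest stretch without an enriched base in either replicate ran from 90488 to 163906 (73419 bp). It was followed by 197030 to 239047 (42018 bp), 323588 to 364666 (41079 bp), 866247 to 907035 (40789 bp) and 240816 to 275872 (35057 bp). Of the 10 such stretches over 20 kb, 5 began within the first 400 kb. The stretches from 197030 and from 240816 are parted by a single region of replicate 1 from 239048 to 240815. Replicate 2 had its longest gap there, 94342 bp from 196885 to 291226, and it holds 2 regions of replicate 1, the one just named and 275873 to 277247 (score 0.294). In replicate 1 the longest was 73463 bp, from 90444 to 163906.

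The combined list placed regions inside all 5 of these stretches. It listed 2, 2, 3, 1 and 3 regions wholly inside them in the order given, with scores from 0.131 to 0.569 beside a combined median of 0.458, and covered 6.03%, 7.38%, 9.09%, 3.19% and 13.7% of their length. The stretches are thus empty of regions at the limits of the replicate lists, which are not given, and not shown to be free of the protein.

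Regions were joined into blocks where no more than 2000 bp lay between them. This gave 78 blocks in replicate 1 and 74 in replicate 2, of which 54 and 53 were single regions. The blocks of more than 1 region, 24 and 21 in number, held 57.3% and 59.8% of the block length. The longest block lay in the telomere-proximal part in both, from 1273705 to 1312335 in replicate 1 (38631 bp, 5 regions) and from 1271674 to 1311311 in replicate 2 (39638 bp, 8 regions). In the combined list 14 regions formed a block of 76845 bp there, from 1259212 to 1336056. For bases enriched in both replicates there were 72 blocks with a median of 2524.5 bp. The longest of these ran from 772247 to 792500 (20254 bp), 816378 to 835144 (18767 bp), 1275166 to 1293654 (18489 bp), 395994 to 412184 (16191 bp) and 1295787 to 1311311 (15525 bp).

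Where 1 region of each replicate overlapped only the other, their edges lay close together at the median. Of the regions of chromosome 4, 84 in each replicate paired with exactly 1 region of the other. Their starts differed by a median of 142 bp and their ends by 163 bp. Starts lay within 200 bp of each other in 51 of the 84 pairs and ends in 47. The starts furthest apart were 770702 in replicate 1 and 772247 in replicate 2. The ends furthest apart were 61374 in replicate 1 and 59122 in replicate 2. The region was wider in replicate 1 in 60 pairs and in replicate 2 in 24, with a median width of 2482 bp in replicate 1 and 2284 bp in replicate 2. Spearman's rho over the 84 pairs was 0.838 for score and 0.852 for width. A further 8 regions of replicate 1 each overlapped 2 regions of replicate 2, and 2 regions of replicate 2 each overlapped 2 of replicate 1.

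The replicates differed by narrow regions and by edges. The Jaccard index, the bases shared divided by the bases in either list, was 0.758. Replicate 1 had 80.9 kb that replicate 2 did not list, 40.6 kb of it in 23 regions without a partner and 40.3 kb at the edges or in the interior of regions with one. Replicate 2 had 26.6 kb of its own, 16.1 kb in 10 regions without a partner and 10.5 kb in regions with one. The regions without a partner made up 19.3% of chromosome 4 regions in replicate 1 and 8.93% in replicate 2, beside 24.2% and 20.5% over all sequence, a difference that was not tested. Regions without a partner had median widths of 1629 bp in replicate 1 and 1491 bp in replicate 2, against 2638.5 and 2379.5 bp for those with a partner.

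Regions without a partner were concentrated at low scores and small widths, which is described and not tested. The regions of each replicate were ranked and cut into 3 groups of near-equal number. By score, 21 of 40, 36 of 39 and 39 of 40 regions of replicate 1 had a partner, from the lowest group to the highest. In replicate 2 the counts were 30 of 37, 35 of 37 and 37 of 38. By width they were 21 of 40, 36 of 39 and 39 of 40 in replicate 1, and 29 of 37, 35 of 37 and 38 of 38 in replicate 2.

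A few regions stood apart from this. The widest without a partner in replicate 1 ran from 28256 to 32979 (4724 bp, score 0.814, 40th of 119). The next widest were 50108 to 52347 (2240 bp), 1002313 to 1004406 (2094 bp), 1245437 to 1247415 (1979 bp) and 1268218 to 1270091 (1874 bp), with scores of 0.566, 0.579, 0.503 and 0.522. Both of the first 2 lie in the first 100 kb, the window in which the replicates differed most, by 13.8 percentage points. In replicate 2 the region from 1315745 to 1317629 (1885 bp) had no partner although its score of 1.49 was 10th of 112. The other wide ones without a partner in replicate 2 were 1073477 to 1075517 (2041 bp, score 0.723), 545307 to 547275 (1969 bp, 0.604), 864391 to 866246 (1856 bp, 0.307) and 1271674 to 1273179 (1506 bp, 0.389).

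The combined list added regions to those of the replicates rather than only joining them. Of its 155 regions, 88 (56.8%, 95% Wilson interval 48.9 to 64.3) overlapped both replicates, 21 (13.5%, 9.04 to 19.8) replicate 1 alone, 9 (5.81%, 3.08 to 10.7) replicate 2 alone and 37 (23.9%, 17.8 to 31.2) neither. Over all 10603 combined regions the shares in the same order were 38.6%, 12.1%, 10.6% and 38.7%, and the difference was not tested. The intervals hold for counting error alone, as if each region were independent of its neighbours. Regions in both were wide, with a median of 3425 bp and 79.6% of the combined bases, and those in neither narrow, with a median of 1407 bp and 10.0% of the bases. Only 1 region of replicate 1 (239048 to 240815) and 1 of replicate 2 (590141 to 591616) lay outside the combined list, and neither had a partner in the other replicate.

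Part of the added regions were narrower than any region of the replicate lists. The combined list reached down to 1001 bp on chromosome 4, and 17 of its regions there were under 1301 bp. Of these 17, 16 overlapped neither replicate and 1 overlapped a single one. The other 21 of the 37 regions in neither replicate were at least 1301 bp wide. Of the 37, 15 lay in the first 400 kb, which held 36 of all 155 combined regions. Most had low scores, and 5 were above the combined median of 0.458. The highest score of the combined list on chromosome 4, 2.54, belonged to such a region, from 35570 to 36570 (1001 bp). The region from 39194 to 40198 (1005 bp, score 1.18, 15th of 155) was found in neither replicate as well. Both are named after their values were seen.

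Set beside other sequence, chromosome 4 was covered more densely than the euchromatic arms and less densely than the pooled Het sequences. Coverage was 28.8% ± 2.84 on chromosome 4, 11.7% ± 0.198 on the 5 arms and 49.2% ± 8.81 on the Het sequences (SD, n = 2). Within a replicate, chromosome 4 had 2.67-fold the coverage of the arms in replicate 1 and 2.27-fold in replicate 2, and 0.556-fold and 0.624-fold that of the Het sequences. The replicate values of chromosome 4, 30.9% and 26.8%, did not overlap those of the arms, 11.6% and 11.8%, or of the pooled Het sequences, 55.5% and 43.0%. Of the single Het sequences, XHet (32.4% and 24.3%) spanned the values of chromosome 4 and YHet (9.60% and 5.33%) lay below them, while the other 4 lay above them in both replicates. With 2 replicates of 1 group no test across samples was made. Without the first 100 kb and the sequence beyond 1200 kb, a setting added once the values were known, chromosome 4 was covered over 24.9%. This was 2.13-fold the coverage of the whole arms, whose ends were kept.

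Pooled over the 5 arms, the centromere-proximal 5 Mb were close to chromosome 4 in coverage. No other distance than 5 Mb was tried, and the pooled values average over unlike windows. Those 25 Mb were covered over 31.2% in replicate 1 and 29.4% in replicate 2, against 30.9% and 26.8% for chromosome 4 named in the same order. Beyond them the arms were covered over 6.33% and 7.17%. The regions were arranged differently, however. Chromosome 4 had 88.0 and 82.8 regions per Mb, against 76.1 and 76.8 in the proximal 5 Mb. Regions of at least 5 kb held 43.9% and 37.3% of its enriched bases, against 54.2% and 49.8% there. Median gaps were longer on chromosome 4, 3631 and 4010 bp against 2732 and 2730 bp, while median widths were close, 2310 and 2186 bp against 2334 and 2395.5 bp. Gaps over 20 kb took 34.6% and 27.9% of chromosome 4 and 41.5% and 43.3% of the proximal 5 Mb. These differences between chromosome 4 and the proximal 5 Mb were the same way round in both replicates and were not tested.

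**Figure D4:**
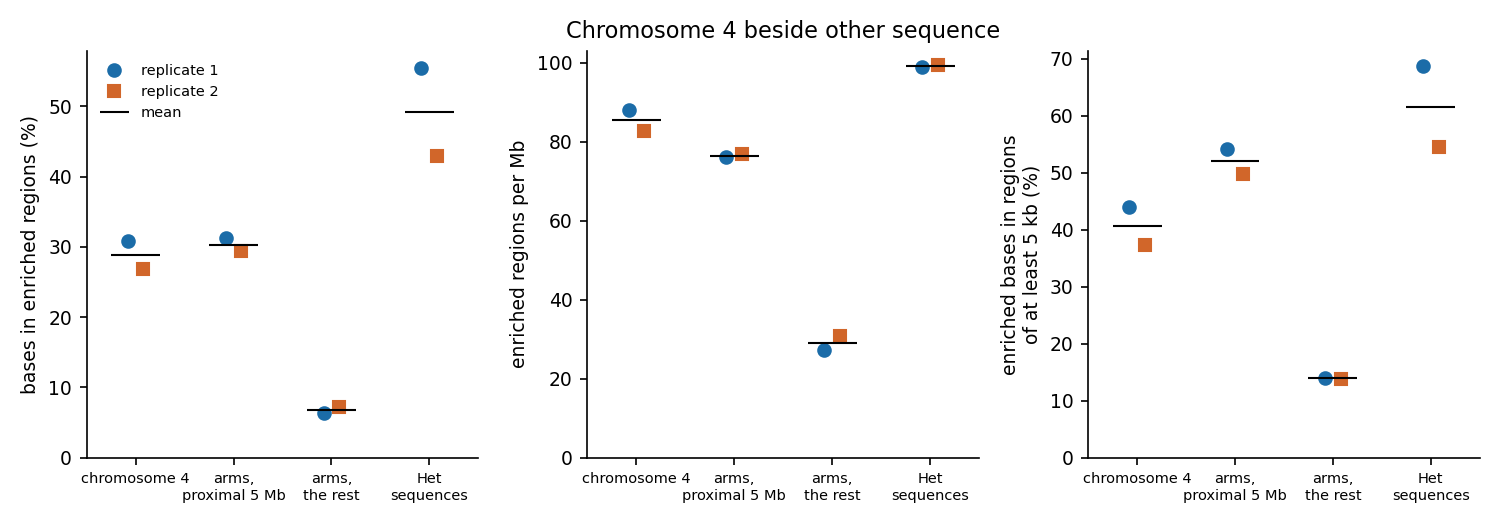
Coverage, regions per Mb and the percent of enriched bases in regions of at least 5 kb for chromosome 4, the proximal 5 Mb of the 5 arms, the rest of the arms and the Het sequences; circles are replicate 1, squares replicate 2 and lines their mean. Chromosome 4 lies near the proximal 5 Mb in coverage (30.9% and 26.8% against 31.2% and 29.4%), has more regions per Mb and has fewer of its bases in wide regions.

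A chromosome as short as this can be set beside equal lengths of the arms. The 5 arms hold 86 consecutive full windows of the length of chromosome 4. In each replicate 8 of them were covered more densely than chromosome 4, all 8 among the 19 windows centred in the proximal 5 Mb and 0 among the 67 others. The median window was covered over 6.05% in replicate 1 and 6.91% in replicate 2, and the highest over 82.8% and 78.3%. In the combined list 8 of the 86 windows exceeded chromosome 4 as well.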

How the data were processed

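Region lists of 2 ChIP libraries and 1 combined list were used; the 2 inputs were not analysed here. The deposited score of each region is the authors' own, on a scale not given in the sources used here. The aligner, per the submitters' processing notes, was Bowtie 0.12.7, and coordinates are FlyBase release 5, per the file headers. The region caller, its limits, the handling of repeat reads and the making of the combined list are likewise not given. Depth is unknown, since the lists hold no read counts; repeat reads placed or dropped by the authors could raise or lower coverage.

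Coverage, gaps (uncovered bases between neighbouring regions), overlaps of at least 1 bp and Wilson intervals were computed in Python 3.11.15 with scipy 1.17.1, and interval code was tested on simulated data. Regions belong to a stretch by their midpoint. The 1 depleted region of replicate 1 was left out. Proximal ends are at low coordinates on 2R and 3R and at high ones on the other 3 arms.

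Named items, by rule, are combined regions in both replicates (10 highest scores, 10 widest, 5 lowest scores), the 5 widest unpaired regions of each replicate, the 5 longest stretches empty in both and the 5 longest blocks enriched in both. Members and rules were chosen with earlier results of these data known. Alternatives were each replicate alone, stricter scores, other overlaps, joining distances, windows and comparison sequence.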

Additional observations from a re-analysis of the deposited data

How the results depend on the processing

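No paired analysis was possible because the inputs, which share replicate numbers with the ChIP libraries, have no values here. Of 48 alternative settings, 22 gave a value within the spread or interval of the one reported and 22 moved. The other 4 gave a count of blocks within 1.5 times the reported count, 2 of them beyond the spread. For values judged by the spread of the 2 replicates, a replicate alone lies inside it by construction, so those settings could not move. For the Jaccard index the interval treated single bases as independent and is too narrow, so its being counted as moved carries no weight. With either replicate alone, coverage ran from 26.8% to 30.9%, its ratio to the arms from 2.27 to 2.67, the median width from 2186 to 2310 bp, the median score from 0.628 to 0.698, the number of blocks from 74 to 78, the longest gap from 73463 to 94342 bp, the difference between the highest and lowest full window from 47.8 to 52.9 percentage points, and combined regions without overlap from 29.7% to 37.4%. With only regions at or above the median chromosome 4 score of their list, coverage was 20.7%, the ratio to the arms 2.83, the median width 3730.25 bp, the median score 1.02, the number of blocks 45, the longest gap 113506 bp, the window difference 44.2 points (50.4 in the main setting) and the Jaccard index 0.726. Except for the Jaccard index, these values are means of the 2 replicates. The lower coverage and the higher median score follow from the filter itself. Width goes with score and regions are only removed, so the wider median, longer gap and fewer blocks are not independent of the filter. The combined list gave a coverage of 38.7% and a ratio of 1.89. Against the arms without their proximal 5 Mb the ratio was 4.31 and against the pooled Het sequences, of which XHet and YHet were not above chromosome 4 in both replicates, it was 0.590. Without the first 100 kb and the sequence beyond 1200 kb, added after the data were seen, coverage was 24.9% and the ratio to the whole arms, with their ends kept, 2.13. Means in place of medians, averaged over the 2 replicates, were 3372 bp for width and 0.795 for score. The number of blocks, 76 with gaps joined up to 2000 bp, was 103 with 500 bp, 51.5 with 5000 bp and 33.5 with 10000 bp. The window difference was 73.8 points with 50 kb, 32.8 with 200 kb and 54.5 with shifted windows. With 50% reciprocal overlap 83.0% of replicate 2 regions were shared, against 91.1% with 1 bp. Depth is unknown, so the lists cannot tell weak from absent binding.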

Other observations

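The list of replicate 1 marks 1 of its 6099 rows as depleted, and that row lies on chromosome 4, from 1073656 to 1075366 (1711 bp), with a score of -0.0115. Replicate 2 lists an enriched region over the same place, from 1073477 to 1075517 (2041 bp), with a score of 0.723, 52nd of its 112 regions on the chromosome. That region covers 100% of the depleted one. The combined list holds an enriched region there too, from 1073491 to 1075491 (2001 bp), with a score of 0.375. The replicates thus carry opposite marks at this place, with 1 library each, and what set them apart was not tested.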
